A study of Homo sapiens with 6 samples.

Results

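The DEAD-box helicases are a family of RNA-dependent ATPases that includes DDX18. A list of 33 family members was followed here in MDA-MB-231 cells after DDX18 knockdown. The members were chosen by name, 13 of them as nucleolar helicases (DDX10, DDX18, DDX21, DDX24, DDX27, DDX31, DDX47, DDX49, DDX51, DDX52, DDX54, DDX55 and DDX56) and 20 as the other helicases of the list, and the question put to them was whether any rose when DDX18 fell. Of the 52142 rows of the deposited table, 32 carried a member's symbol. DDX52 had none and was not analysed here. The measured values reached the limit for testing, a mean of 1 CPM over all libraries (CPM are read counts scaled to a fixed library size), in 31 members, namely 12 nucleolar and 19 other ones; DDX39B was listed at 0 in every library.

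MDA-MB-231 is an established cell line from a triple negative breast tumour. Messenger RNA was sequenced from 3 groups of 2 libraries, namely DDX18 knockdown cells of colony 1, DDX18 knockdown cells of colony 2 and control cells, all of this line and with no other genotype or treatment in the labels. The labels do not say how DDX18 was knocked down, what the control cells carried, or whether a colony came from a single cell, so each colony stands for 1 line. Nor do they state that replicates of a group were cultured apart, so p-values below cover the variation among these libraries alone, and that variation may be technical. The smallest step of each library's values implied 8843847 to 11902437 reads, if 1 step of 0.0815 to 0.108 CPM is 1 read; in 3 of the 6 libraries the steps did not pass a further check of this, so these depths are estimates. The mesenchymal markers of this line were abundant, with VIM at 1739 to 1803 CPM and CAV1 at 739 to 825 CPM across the 6 libraries, but SPARC, also on that list, was at 0.324 to 0.570 CPM in knockdown and at 2.15 and 2.40 CPM in control cells. The hormone receptor gene PGR was at 0 in every library and ESR1 at no more than 0.201 CPM, whereas ERBB2, which encodes HER2, was at 102 to 113 CPM in knockdown and at 125 and 134 CPM in control cells. Of the leukocyte and endothelial markers, CD3E, CDH5, VWF and PTPRC stayed at or under 0.801 CPM, and CD14 was at 4.10 to 7.25 CPM.

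DEAD-box proteins share a core of paired RecA-like domains that clamps RNA, bends it and lets go after ATP hydrolysis, which separates short duplexes or strips proteins from RNA. In the nucleolus they act one after another on the ribosomal RNA precursor, opening helices between small nucleolar RNAs and the precursor and remodelling the assembling subunits; most of these steps were worked out on the orthologs in budding yeast. DDX18 is the counterpart of yeast Has1, which acts on precursors of both subunits. Outside the nucleolus, other family members act in splicing, mRNA export, translation initiation and mRNA storage.

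DDX18 was reported first because it checks the labels. It stood at 17.6 and 14.0 CPM in colony 1 and at 14.7 and 15.1 CPM in colony 2, against 78.8 and 91.7 CPM in control cells. All 4 knockdown libraries were far below both controls, and the colonies lay close together. Its mean was 15.4 ± 1.56 CPM in knockdown cells (SD, n = 4) and 85.2 ± 9.14 CPM in control cells (SD, n = 2), so 18.02% of the control level was left. The log2 change was −2.40 with an SE of 0.11 (limma, Benjamini-Hochberg adjusted p = 3.9e-15). Log2 changes here are differences of log2(CPM + 1), knockdown minus control, where knockdown is the mean of both colonies, and a gene was called at an adjusted p under 0.05 over the 13675 genes tested. Its exons (GRCh38, chr2:117814650-117832379, plus strand) overlap no other annotated gene. In bulk libraries such as these, fewer cells with a transcript and less of it per cell cannot be told apart.

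Several helicases rose in the knockdown, and few fell. Beside DDX18, 10 of the other 30 tested members rose in the knockdown, namely DDX10, DDX21, DDX31 and DDX54 of the nucleolar ones and DDX39A, DDX50, DDX1, DDX46, DDX41 and DDX5 of the others. Only DDX6 and DDX56 fell among these 30. Changes were common in these cells: 23.2% of all tested genes rose and 21.5% fell. The 10 of 30 that rose (33.3%) stood above the first share and the 2 that fell (6.67%) below the second. That background includes genes of low level. When only the 10067 genes averaging 10 CPM or more were fitted, 28.4% rose and 24.5% fell. The split of members was then 11 higher and 3 lower with DDX18 included, with DDX19A gained as higher. The difference between members and all genes was not tested. The median log2 change was 0.11 over the 30 members and 0.01 over all tested genes. In 13 of the 30, a larger share than the 27.8% of all tested genes, all 4 knockdown libraries lay above both controls. In 1, DDX6, all lay below, a smaller share than the 25.8% of all tested genes. These differences were not tested either. When each library was centred on its median, the split was 10 higher and 5 lower with DDX18 included, in place of 10 and 3, and among all genes tested 19.6% higher and 25.7% lower. With the replicate number as a block the split was 11 and 5 (26.6% and 25.1% of all genes tested). Gained as lower in both of these fits were DDX24 and EIF4A3, and gained as higher with the block was DDX19A. Leaving out colony 1 replicate 2 also raised the lower count.

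**Figure D1:**
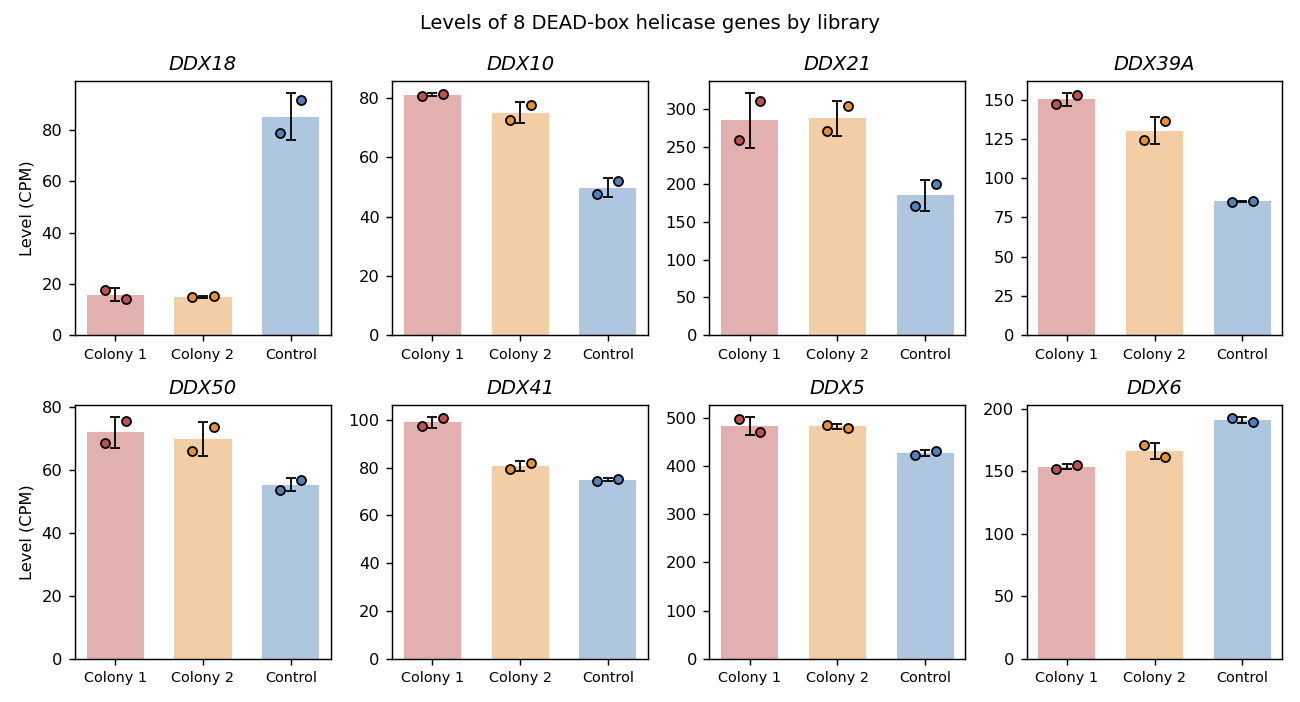
Level of 8 DEAD-box helicase genes in CPM on linear axes from 0; points are libraries, bars the mean of 2 libraries and error bars the SD, for colony 1, colony 2 and control. DDX18 is low in all 4 knockdown libraries, DDX10, DDX21, DDX39A, DDX50 and DDX5 lie above both controls in all 4, DDX6 lies below both, and DDX41 is higher in colony 1 than in colony 2.

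Among the nucleolar helicases, the rises were led by DDX10, the counterpart of yeast Dbp4, which acts in early assembly of the small subunit. DDX10 stood at 80.85 and 81.5 CPM in colony 1 and at 72.5 and 77.6 CPM in colony 2, against 47.5 and 52.05 CPM in control cells. The groups did not overlap, and the lowest knockdown library was well above the higher control. Its log2 change was 0.64 (SE 0.08, limma adjusted p = 1.1e-07), which is 1.56-fold on that scale. Its gene is annotated at chr11:108665025-108940930 of GRCh38, plus strand. Of the other counterparts of yeast small subunit helicases, DDX49, that of Dbp8, had a log2 change of 0.11 with a 95% interval of −0.07 to 0.29, and DDX47, that of Rrp3, one of −0.06 with an interval of −0.54 to 0.43. DDX47 was at only 0.707 to 1.84 CPM in knockdown and at 1.53 and 1.30 CPM in control cells, and 36.5% of its annotated exon bases also belong to APOLD1 on the same strand, so its value is uncertain. For DDX49 in colony 1 alone the log2 change was 0.24, which the main fit did not call (adjusted p = 0.0589) and a fit with the replicate number as a block did (adjusted p = 0.0195).

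DDX21, which binds ribosomal RNA precursors and small nucleolar RNAs and also acts in transcription by RNA polymerases I and II, rose about as much. It stood at 259 and 310 CPM in colony 1 and at 271 and 304 CPM in colony 2, against 171 and 200 CPM in control cells. Every knockdown library was above both controls, although replicate 2 was the higher one in each group. Its log2 change was 0.62 (SE 0.08, limma adjusted p = 1.2e-06). DDX50, the paralog of DDX21 and also found in nucleoli, is counted with the other members by the rule used here. Its levels were 68.4 and 75.4 CPM in colony 1 and 66.1 and 73.6 CPM in colony 2, against 53.7 and 56.8 CPM in control cells. It rose as well, with no overlap between groups, with a log2 change of 0.35 (SE 0.08, limma adjusted p = 6.1e-04). The encoded proteins were identical at 60.4% of aligned residues. The genes follow each other on the plus strand (GRCh38, DDX50 at chr10:68901278-68946847 and DDX21 at chr10:68956128-68985073), with no exon bases shared with another annotated gene.

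Of the 8 helicases whose yeast counterparts act in large subunit assembly, DDX18 included, 2 rose in addition to the fall of DDX18. Over the 7 other than DDX18 this is 28.6%, near the 23.2% of all tested genes. DDX31, the counterpart of yeast Dbp7, stood at 29.8 and 28.4 CPM in colony 1 and at 30.2 and 26.4 CPM in colony 2, against 19.7 and 24.02 CPM in control cells. All 4 knockdown libraries were above both controls, the lowest by little, and the log2 change was 0.38 (SE 0.11, limma adjusted p = 0.00614). Without control replicate 1 it was 0.24 and no longer called (adjusted p = 0.16). DDX54, the counterpart of yeast Dbp10, was at 116 and 144 CPM in colony 1 and at 120 and 127 CPM in colony 2, against 95.5 and 104 CPM in control cells. Here too the groups did not overlap, and the log2 change was 0.34 (SE 0.08, limma adjusted p = 7.7e-04). On the opposite strand, CFAP73 overlaps 9.89% of the exon bases of DDX54 and GTF3C4 overlaps 6.62% of those of DDX31; whether strand was used in counting is not given in the sources used here.

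DDX56, the counterpart of yeast Dbp9, was the only helicase of this group other than DDX18 that fell. Its levels were 74.4 and 79.39 CPM in colony 1 and 68.2 and 69.1 CPM in colony 2, against 79.38 and 85.4 CPM in control cells. One library of colony 1 reached the lower control, and the log2 change of −0.18 (SE 0.07, limma adjusted p = 0.0471) passed narrowly. The call was lost without any 1 of 5 libraries, every one except colony 1 replicate 2 (adjusted p 0.0509 to 0.306), when genes of low value were kept (0.0873), and when the 4 knockdown libraries were fitted as 1 group (0.0975). DDX24, the counterpart of yeast Mak5, was not called between knockdown and control in the main fit (log2 change −0.14, limma adjusted p = 0.077). It was called lower with the replicate block (adjusted p = 0.016) and with median centring (−0.18, adjusted p = 0.0179). Without colony 1 replicate 2 its log2 change was −0.17. In colony 2 alone it fell by 0.19 (adjusted p = 0.0322). The remaining counterparts of large subunit helicases were not called, with log2 changes of 0.10 for DDX27 (95% interval −0.04 to 0.24), 0.13 for DDX51 (−0.08 to 0.34) and −0.03 for DDX55 (−0.22 to 0.16). With the replicate block, DDX27 was called higher in colony 1 alone (log2 change 0.17, adjusted p = 0.0252, against 0.0854 in the main fit).

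The stretches just upstream of the starts of 4 members that rose are shown because each holds a motif that is common in promoters of growth genes, and because DDX21 and DDX50 are neighbours and paralogs that both rose. They are the 100 bases before the RefSeq start (GRCh38.p14), 5′ to 3′ on the strand of the gene, with the motif in capitals: the ETS-type motif CCGGAAGT in DDX21 (chr10:68956070-68956169, plus strand) and DDX50 (chr10:68901215-68901314, plus strand), and the E-box CACGTG in DDX31 (chr9:132669984-132670083, minus strand) and DDX54 (chr12:113185479-113185578, minus strand).
DDX21: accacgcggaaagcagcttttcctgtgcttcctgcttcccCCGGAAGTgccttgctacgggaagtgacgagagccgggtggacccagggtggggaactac
DDX50: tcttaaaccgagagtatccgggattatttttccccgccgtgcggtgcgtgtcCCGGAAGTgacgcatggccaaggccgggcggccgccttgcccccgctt
DDX31: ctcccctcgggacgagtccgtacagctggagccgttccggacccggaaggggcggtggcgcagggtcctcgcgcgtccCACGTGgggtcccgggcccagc
DDX54: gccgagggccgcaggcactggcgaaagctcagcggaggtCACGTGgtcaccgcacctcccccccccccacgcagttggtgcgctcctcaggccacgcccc

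Promoter sequences, taken from 250 bases before to 50 bases after each RefSeq start, matched 30 of the 33 members by symbol; DDX18, DDX49 and DDX52 were not matched. CCGGAAGT, searched on both strands, was in 7 of these 30 (23.3%; DDX21, DDX27, DDX47, DDX56, DDX5, DDX39B and DDX50), in 8.66% of the promoters of tested genes and in 4.44% of all 27305 promoters. Of these 7 members, DDX21, DDX50 and DDX5 rose, DDX56 fell, DDX27 and DDX47 were not called, and DDX39B was not tested. CACGTG was in 4 of the 30 (13.3%; DDX31, DDX54, DDX5 and EIF4A3), in 9.95% of the promoters of tested genes and in 7.43% of all promoters. The window of DDX5 held both, 123 and 30 bases before the start, without overlap; neither was found in the windows of DDX10 and DDX39A, which rose most. The matches describe these letters only; binding was not measured.

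Outside the nucleolar list, DDX39A rose most of all tested members. DDX39A, also called URH49, encodes an mRNA export helicase that is nearly identical to UAP56, the product of DDX39B. It stood at 147.5 and 153 CPM in colony 1 and at 124 and 136.5 CPM in colony 2, against 85.1 and 85.3 CPM in control cells. The knockdown libraries were far above both controls, and those of colony 1 above those of colony 2. The log2 change was 0.71 (SE 0.07, limma adjusted p = 1.8e-09). DDX39A (GRCh38, chr19:14408819-14419383, minus strand) has no exon bases shared with another annotated gene, but its protein was identical to that of DDX39B at 90.0% of aligned residues, and DDX39B was listed at 0 in every library. The read-through gene ATP6V1G2-DDX39B and the antisense gene DDX39B-AS1, which overlap DDX39B, were listed at 0 too. Thus no level of DDX39B can be given, and the sum of this pair cannot be compared between groups.

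Of the 4 tested splicing helicases, DDX46 and DDX41 rose, and DDX23 and DDX42 were not called. The 50% that rose stands beside 23.2% of all tested genes, but 4 genes are too few to set it apart. DDX46, whose yeast counterpart Prp5 acts when the U2 particle joins the branch site, was at 153 and 160.5 CPM in colony 1 and at 150 and 154 CPM in colony 2, against 119 and 126 CPM in control cells. The groups did not overlap, and the log2 change was 0.33 (SE 0.06, limma adjusted p = 1.1e-04). DDX41, a spliceosome component that is mutated in some myeloid neoplasms, was at 97.4 and 101 CPM in colony 1 and at 79.3 and 82.05 CPM in colony 2, against 74.5 and 75.4 CPM in control cells. All knockdown libraries were above both controls, but those of colony 2 only slightly. Its log2 change was 0.25 (SE 0.07, limma adjusted p = 0.00414) in the knockdown as a whole. DDX23, the U5 particle helicase, and DDX42, which belongs to the U2 particle, were not called, at −0.02 (95% interval −0.19 to 0.15) and 0.07 (−0.05 to 0.19).

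DDX1, a member of the tRNA ligase complex that joins cleaved tRNAs, and DDX5, a helicase of transcription, splicing and microRNA processing, rose as well. DDX1 stood at 99.4 and 103 CPM in colony 1 and at 90.1 and 98.9 CPM in colony 2, against 72.1 and 82.4 CPM in control cells, without overlap. Its log2 change was 0.34 (SE 0.07, limma adjusted p = 4.3e-04). DDX5 was at 496 and 470 CPM in colony 1 and at 485 and 479 CPM in colony 2, against 422 and 430 CPM in control cells. The groups were apart but the change was the smallest of the 10 rises, at a log2 change of 0.18 (SE 0.05, limma adjusted p = 0.0079), and it was not called without control replicate 1 (adjusted p = 0.0727). Its paralog DDX17, with 68.1% of aligned residues identical, had overlapping groups at 265 and 266 CPM in colony 1 and 304 and 287 CPM in colony 2, against 279.5 and 265 CPM in control cells, and a log2 change of 0.04 (95% interval −0.08 to 0.16).

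DDX6, which holds mRNAs in processing bodies and acts with the CCR4-NOT complex in repression and decay, fell. It stood at 152 and 155 CPM in colony 1 and at 171 and 162 CPM in colony 2, against 193 and 189 CPM in control cells. All 4 knockdown libraries were below both controls, those of colony 1 the furthest, and the log2 change was −0.26 (SE 0.06, limma adjusted p = 0.00113). EIF4A3, the RNA clamp of the exon junction complex, was at 108 and 131 CPM in colony 1 and at 93.5 and 102 CPM in colony 2, against 119 and 124 CPM in control cells. Its log2 change of −0.17 was not called in the main fit (limma adjusted p = 0.0613). It was called lower with the replicate block (adjusted p = 0.00642) and with median centring (−0.22, adjusted p = 0.02). The log2 change was −0.24 without colony 1 replicate 2 and −0.20 without colony 2 replicate 2. The libraries of colony 1 straddled the controls and those of colony 2 were below them.

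The translation initiation helicases and the remaining members were not called. EIF4A2 had a log2 change of −0.0012 with a 95% interval of −0.11 to 0.11, at 363 to 409 CPM in knockdown and 376 and 400 CPM in control cells. EIF4A1, its paralog at 90.3% of aligned residues, was at only 4.53 to 8.07 CPM in knockdown and at 6.13 and 5.11 CPM in control cells. On the same strand, SENP3-EIF4A1 and other annotated genes hold 48.6% of the exon bases of EIF4A1, so its level is uncertain and no comparison of its level with that of EIF4A2 is made. DDX3X, a helicase of translation initiation, had a log2 change of 0.04 (95% interval −0.07 to 0.15). The mRNA export helicases DDX19A and DDX19B, with 96.0% of aligned residues identical, had 0.23 and −0.10; reads of such close copies may be split between them, and DDX19A shares 23.8% and DDX19B 15.7% of exon bases with AC012184.2. DDX19A was not called in the main fit (adjusted p = 0.0508) but was called with the replicate block (adjusted p = 0.0235). DDX20, which belongs to the SMN complex, had a log2 change of 0.00 (95% interval −0.22 to 0.23). DDX59 had one of −0.03 (−0.27 to 0.20) and the mitochondrial helicase DDX28 one of 0.14 (−0.16 to 0.45). For DDX28, DUS2 on the opposite strand overlaps 22.5% of the exon bases and stood at 8.79 to 13.2 CPM in knockdown and 16.6 and 15.5 CPM in control cells; its part in the value of DDX28 was not tested.

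**Figure D2:**
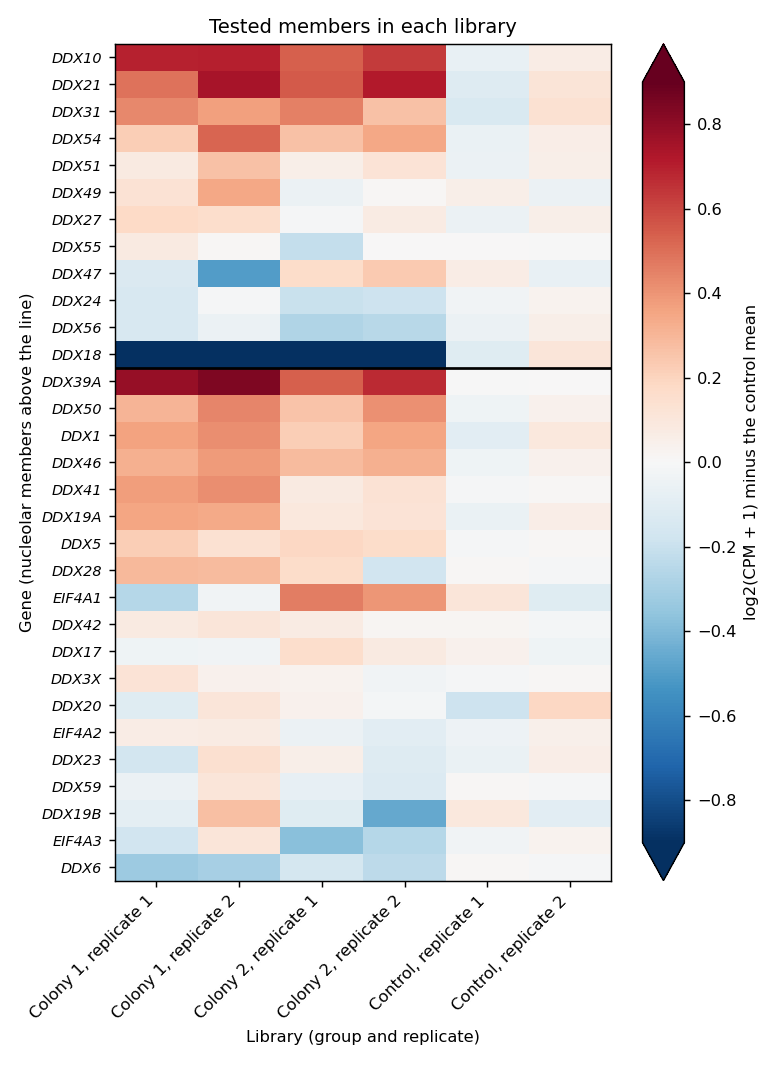
Colour gives log2(CPM + 1) of each of the 31 tested members minus its control mean, by library, from blue (lower) to red (higher); colours saturate at 0.9 in either direction, which DDX18 exceeds. Nucleolar members are above the line, and members are ordered by their change. The upper rows of each class are red in all 4 knockdown libraries, DDX6 at the bottom is blue in all 4, and most rows between are pale or mixed.

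With DDX18 left aside, both the nucleolar and the other helicases held members that rose, and in each class most were not called. Of the 11 other nucleolar members tested, 4 rose and 1 fell, with a median log2 change of 0.11; of the 19 other members, 6 rose and 1 fell, with a median of 0.07. The shares that rose were 36.4% and 31.6%, beside 23.2% of all tested genes. In the fit of genes averaging 10 CPM or more, 28.4% of all genes rose. DDX19A, of the other members, was gained as higher in that fit. The 36.4% and 31.6% come from the main fit and are not compared with the 28.4%. The range was −0.18 to 0.64 over the nucleolar members and −0.26 to 0.71 over the others. The difference between the classes was not tested. By library, the mean of the 11 nucleolar members relative to the control mean was 0.17 and 0.23 in colony 1 and 0.12 and 0.18 in colony 2, against −0.04 and 0.04 in the controls. For the 19 others it was 0.11 and 0.20 in colony 1 and 0.10 and 0.06 in colony 2, against −0.02 and 0.02 in the controls. Replicate 2 was the higher one for the nucleolar members in each group. With the medians taken without members that share over 20% of their exon bases with another gene, they were 0.12 for nucleolar and 0.04 for other members.

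The members closest to DDX18 in sequence included ones that rose and ones that were not called. The proteins of all members were aligned locally with that of DDX18, from coding sequences of GENCODE release 29, and ranked by alignment score. DDX10 came first, with 42.0% identical residues over 505 aligned columns, and rose by 0.64. Next came DDX55 (35.0%), which was not called, at −0.03, then DDX31 (33.1%), which rose by 0.38, DDX27 (32.4%), not called, at 0.10, and DDX47 (39.5%), not called, at −0.06. Thus 2 of the 5 members closest to DDX18 rose, beside 33.3% of the 30 tested members and 23.2% of all tested genes. So small a count does not set them apart, and the value of DDX47 is uncertain, as given above. DDX39A, with the largest rise, was 23rd of 32 in this ranking, and DDX1, which rose by 0.34, was the last. Over the 30 tested members, the number of identical residues and the log2 change had a Spearman rho of 0.206 and a Pearson r of 0.338. These describe 30 genes measured in the same 6 libraries, with no test.

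**Figure D3:**
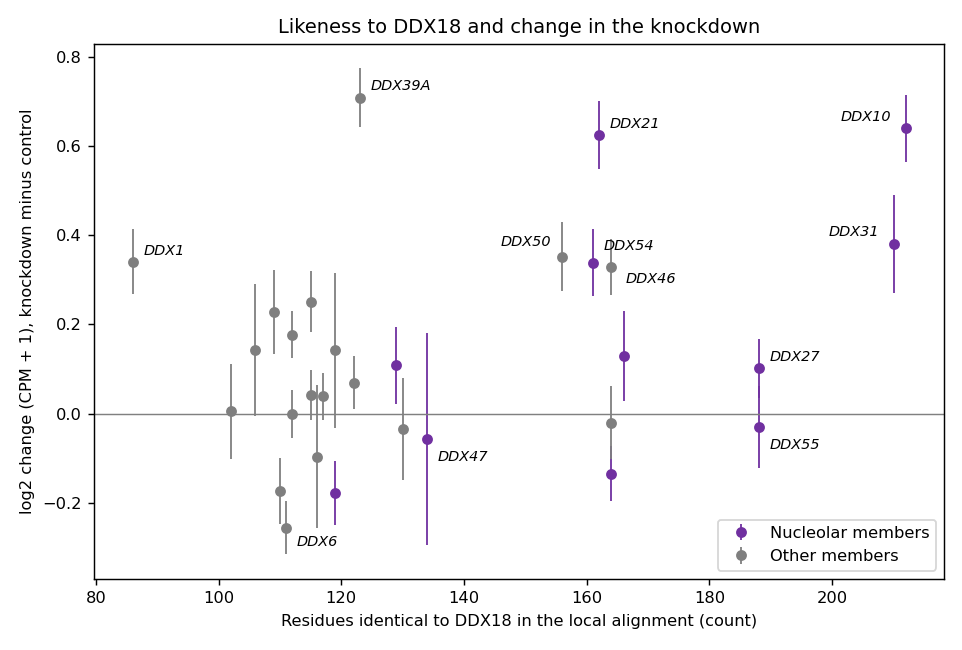
Each point is 1 of the 30 tested members other than DDX18: across, the number of residues identical to DDX18 in the local alignment; up, the log2 change of CPM + 1, knockdown minus control, with its SE as the bar. DDX10 and DDX31 share the most residues and lie above 0, DDX27 and DDX55 share 188 each and lie at 0.10 and −0.03, and DDX39A lies highest with 123.

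How far the rises add up beside the loss of DDX18 can be read from the CPM themselves. DDX18 was lower by 69.9 CPM in the knockdown. The CPM of the 31 other members with a row summed to 3885 ± 119 in knockdown (SD, n = 4) and 3549 ± 88.4 in control cells (SD, n = 2), a difference of 336 CPM or 9.47%. The 4 knockdown sums, at 3901 and 4047 in colony 1 and 3789 and 3803 in colony 2, were all above the control sums of 3486 and 3611. For the 11 nucleolar members other than DDX18 the sums were 1007 ± 61.1 CPM in knockdown and 857 ± 48.5 CPM in control cells, a difference of 149 CPM or 17.4%, of which DDX21 alone gave 101 CPM. The 20 other members summed to 2879 ± 72.8 CPM in knockdown and 2692 ± 39.8 CPM in control cells, a difference of 187 CPM or 6.95%. A sum of CPM weights long and abundant transcripts most, and a library's CPM are shares of its reads. Whether any member takes over work of DDX18 was not tested by these data.

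Per kilobase of annotated exon, the members spanned a wide range. EIF4A1 and DDX47, whose levels are uncertain, and DDX39B, listed at 0, cannot be placed in the order below. Reads of DDX19A and DDX19B may be split between them, so their places are uncertain too. Other annotated genes on either strand overlap 17.9% of the exon bases of EIF4A2 and 9.1% of those of DDX5. EIF4A2 and DDX5 were the most abundant, at 63.2 ± 3.69 and 65.3 ± 1.497 CPM per kb in knockdown cells and 63.2 ± 2.69 and 57.7 ± 0.763 CPM per kb in control cells, followed by DDX21 at 57.0 ± 4.94 CPM per kb in knockdown and 36.9 ± 4.14 CPM per kb in control cells. In knockdown cells the order after these was DDX39A (36.5), DDX3X (32.6), DDX17 (28.1), DDX50 (26.3), DDX1 (25.6) and DDX54 (25.0). Neighbours such as DDX50, DDX1 and DDX54 lay within 1 SD of each other. DDX18 was at 1.96 ± 0.198 CPM per kb in knockdown cells and at 10.9 ± 1.16 CPM per kb in control cells. DDX10, the member closest to it in sequence, was at 9.03 ± 0.475 CPM per kb in knockdown and 5.75 ± 0.371 CPM per kb in control cells. The errors are SD over 4 knockdown and 2 control libraries. The exon length counts every annotated exon base once, including exons these cells may not use.

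**Figure D4:**
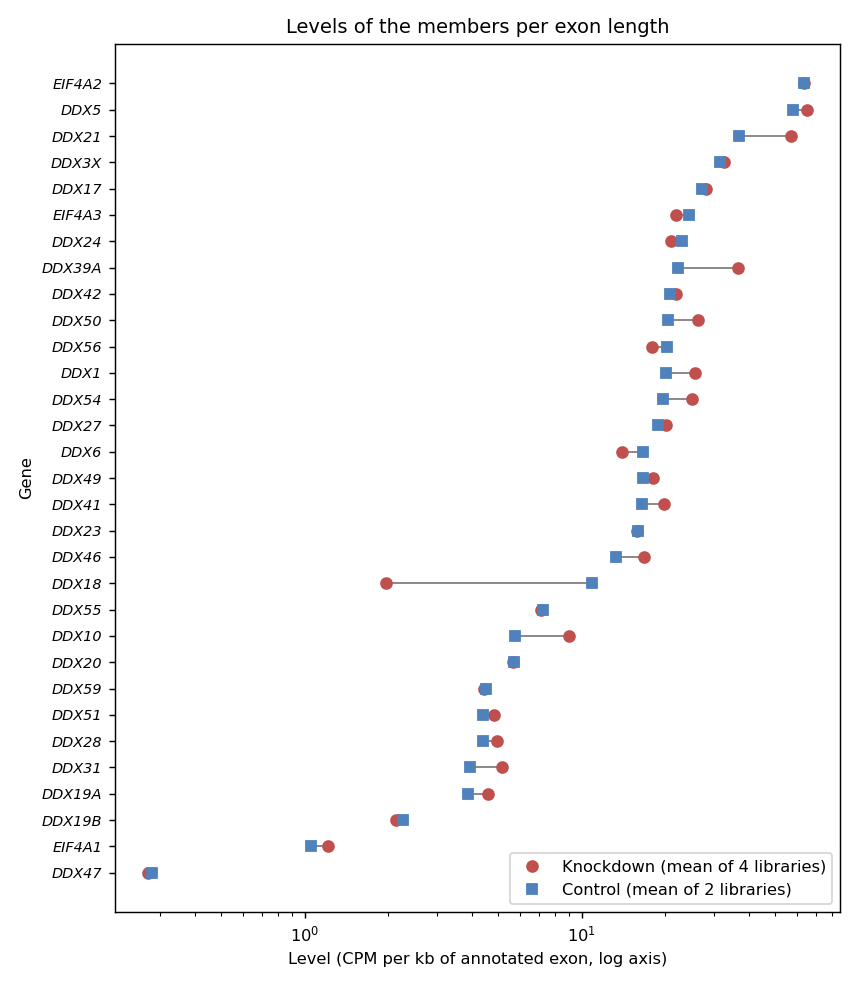
Level of the 31 members above 0, in CPM per kb of annotated exon on a log axis, as the mean of 4 knockdown libraries (circles) and of 2 control libraries (squares), ordered by the control level. The places of EIF4A1, DDX47, DDX19A and DDX19B are uncertain. DDX18 is at 1.96 in knockdown cells, against 10.9 in control cells, DDX39A, DDX10 and DDX21 stand at 36.5, 9.03 and 57.0 in knockdown cells, against 22.2, 5.75 and 36.9 in control cells, and the marks of many others touch.

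The colonies were then taken one at a time; both are compared with the same 2 control libraries, so their values are not independent. In colony 1, 11 members rose and 2 fell, DDX18 included, beside 21.1% and 18.3% of all tested genes. In colony 2, 9 rose and 5 fell, beside 20.5% and 19.8% of all tested genes. DDX10 had log2 changes of 0.70 in colony 1 and 0.58 in colony 2, DDX21 0.62 and 0.63, DDX31 0.40 and 0.36, and DDX54 0.37 and 0.31. For DDX39A they were 0.81 and 0.61, for DDX50 0.37 and 0.33, for DDX1 0.39 and 0.29, for DDX46 0.35 and 0.31, and for DDX5 0.18 and 0.18. With median centring, DDX5 was called in neither colony (limma adjusted p = 0.102 in colony 1 and 0.0892 in colony 2). DDX6 had −0.31 in colony 1 and −0.20 in colony 2. Called in colony 1 and not in colony 2 were DDX41 (0.40 and 0.11) and DDX19A (0.35 and 0.11), both higher; the call of DDX19A in colony 1 was lost without control replicate 1 (adjusted p = 0.0993) and without either library of colony 1 (0.0598 and 0.0573). Called lower in colony 2 and not in colony 1 were DDX24 (−0.08 in colony 1 and −0.19 in colony 2), DDX56 (−0.10 and −0.26) and EIF4A3 (−0.03 and −0.32). The counts of colony 2 rested on single libraries: 5 rose without control replicate 1 or without colony 2 replicate 2, and 2 fell without control replicate 2 or without either library of colony 2. DDX10, DDX21, DDX39A and DDX46 kept their call in each colony under each omission of 1 library.

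The direct contrast of the colonies called few of these differences. With limma, 0 members were higher and 1 was lower in colony 2 than in colony 1, beside 0.629% and 1.65% of all tested genes. At an unadjusted p under 0.05 the counts were 2 and 7 among the 30 members other than DDX18, beside 776 and 1097 of all 13675 tested genes. The 1 was DDX41, at −0.29 (SE 0.08, adjusted p = 0.049), with 79.3 and 82.05 CPM in colony 2 and 97.4 and 101 CPM in colony 1, and it was lost when any 1 of the 4 knockdown libraries was left out (adjusted p 0.129 to 0.316). With the replicate block, which called 2.64% of all genes tested higher and 4.94% lower, 1 member, DDX17, was higher in colony 2 (log2 difference 0.16, adjusted p = 0.0488) and 3 were lower, namely DDX41, DDX39A (−0.21, adjusted p = 0.0256) and EIF4A3 (−0.29, adjusted p = 0.00112). For EIF4A3 the adjusted p in the main fit was 0.0838. DDX19A and DDX56 differed between the colonies by −0.24 and −0.16, with adjusted p of 0.324 and 0.404, so a difference between colonies was not shown for them. DDX18 itself differed by −0.07 (adjusted p = 0.876).

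**Figure D5:**
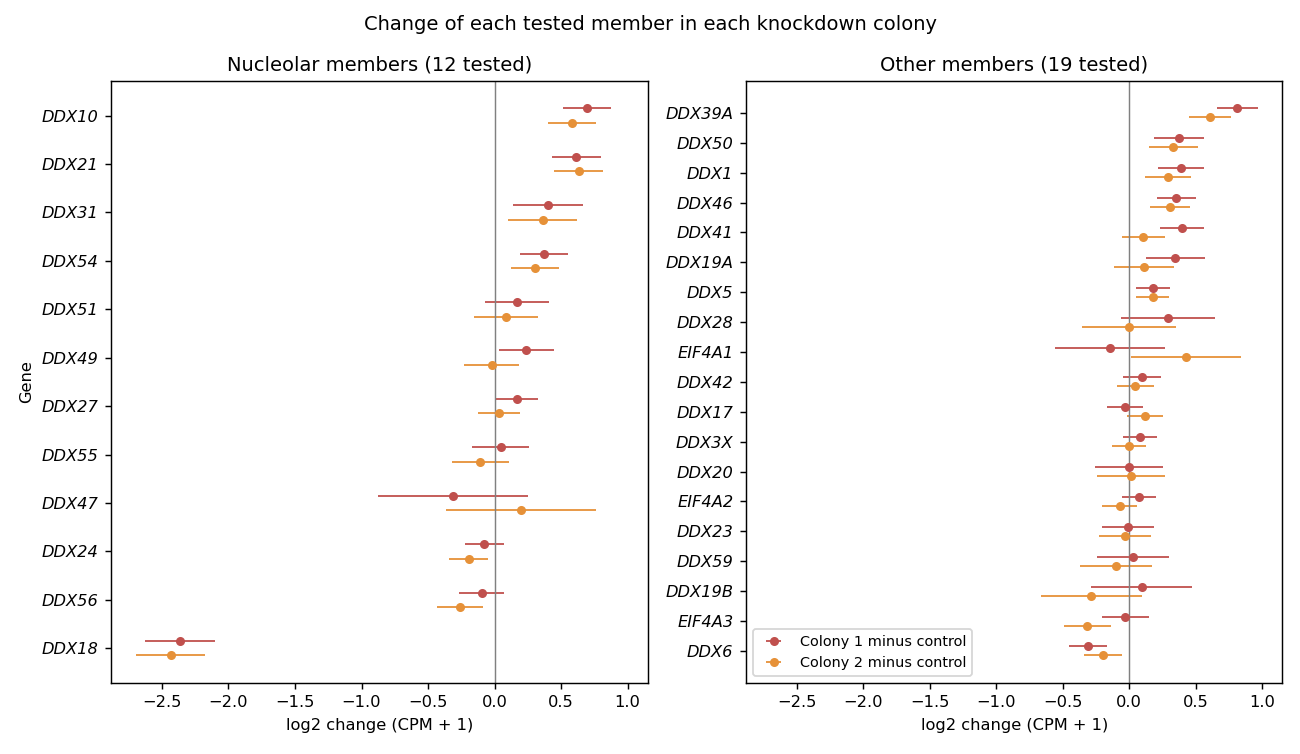
Log2 change of CPM + 1 of each tested member with its 95% interval (limma), colony 1 minus control above and colony 2 minus control below in each pair, for the 12 nucleolar members (left) and the 19 others (right). DDX18 lies near −2.4 in both colonies; DDX10, DDX21, DDX31 and DDX54 on the left and DDX39A, DDX50, DDX1, DDX46 and DDX5 on the right lie above 0 with both intervals.

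Genes that work beside the helicases were counted from lists. DDX18 and some of its nucleolar relatives act on precursors of the large ribosomal subunit. Of 27 tested assembly factors of that subunit, 14 rose and 0 fell (limma). These are 51.9% and 0%, beside 23.2% and 21.5% of all tested genes, and the median log2 change was 0.27. At an unadjusted p under 0.05 the counts were 16 and 0, beside 3591 and 3433 of all 13675 tested genes. MAK16 stood at 29.5 and 25.9 CPM in colony 1 and at 29.01 and 29.9 CPM in colony 2, against 9.71 and 10.01 CPM in control cells, a log2 change of 1.44 (SE 0.11, adjusted p = 1.1e-10). RPF2, which brings the 5S particle to the precursor, rose by 0.82 (SE 0.11, adjusted p = 1.9e-06). Of the 7 large subunit helicases other than DDX18, 2 rose (28.6%, near the share of all tested genes). Without control replicate 1 fewer of the 27 rose, and the share of all tested genes that rose was lower too.

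Of 35 tested cofactors and partners of DEAD-box helicases, 10 rose and 7 fell (28.6% and 20%), near the 23.2% and 21.5% of all tested genes, with a median log2 change of −0.02. With median centring the split was 5 higher and 11 lower, and the shares of all tested genes moved too, to 19.6% and 25.7%. With the replicate block the split was 12 and 11 (26.6% and 25.1% of all tested genes). The higher count also fell without control replicate 1 and without colony 2 replicate 2. PDCD4, which binds eIF4A and blocks its helicase activity, stood at 35.9 and 34.1 CPM in colony 1 and at 38.1 and 31.7 CPM in colony 2, against 64.3 and 64.7 CPM in control cells. That is a fall by 0.87 on the log2 scale (SE 0.09, limma adjusted p = 1.8e-08), with the knockdown libraries far below both controls. EIF4B, which stimulates eIF4A, fell by 0.28 (SE 0.06, limma adjusted p = 2.3e-04). MAGOHB, a subunit of the exon junction complex that binds EIF4A3, rose by 0.54 (SE 0.14, limma adjusted p = 0.00249), though not without control replicate 2 (adjusted p = 0.0513). MAGOHB has a close paralog in MAGOH, and SMN1, a partner of DDX20 called at 0.39 (SE 0.15, limma adjusted p = 0.0331), has a near-identical copy in SMN2, so both values are uncertain. The call of SMN1 was lost in 6 alternatives, among them the omission of control replicate 1 (adjusted p = 0.221).

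The DEAH-box helicases, a sister family that moves along RNA instead of opening it locally, had 5 of 16 higher and 3 lower (31.2% and 18.8%, beside 23.2% and 21.5% of all tested genes), with a median log2 change of 0.07. These small counts depended on the fit. They were 3 higher and 4 lower under median centring (19.6% and 25.7% of all tested genes) and 7 and 4 with the replicate block (26.6% and 25.1%). With no filter on low values they were 3 and 3 (13.1% and 13.3%). With the 4 knockdown libraries as 1 group they were 3 and 2 (20.7% and 18.9%). Leaving out any single library lowered the higher count. DHX37, which acts in small subunit assembly, rose by 0.61 (SE 0.10, limma adjusted p = 1.3e-05), at 43.6 and 53.5 CPM in colony 1 and 41.1 and 48.0 CPM in colony 2, against 29.5 and 30.6 CPM in control cells. DHX33, a nucleolar helicase of ribosomal RNA transcription, rose by 0.31 (SE 0.08, adjusted p = 0.00128). DHX57 fell by 0.44 (SE 0.11, adjusted p = 0.00154), and YTHDC2, a meiotic RNA-binding helicase, fell by 0.35 (SE 0.09, adjusted p = 0.00254). YTHDC2 was not called without control replicate 2 (−0.16, adjusted p = 0.24). Of 10 related helicases of the same superfamily outside these families, 2 rose, namely the interferon-inducible DDX60 by 0.44 and the RNA sensor RIGI by 0.29, and 1 fell, DDX60L by 0.35. These are 20% and 10%, beside 23.2% and 21.5% of all tested genes, and the median of the 10 was −0.07. With the replicate block 2 rose and 2 fell (26.6% and 25.1% of all tested genes), as with median centring (19.6% and 25.7%). RIGI was not called without control replicate 1 (0.20, adjusted p = 0.132).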

How the data were processed

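The authors deposited 1 table of CPM for 6 libraries. The submitters' processing notes name Trim Galore, HISAT2 and the builds hg38 and mm10, without versions. Not given in the sources used here are the counting program, annotation, strand and scaling. Libraries were made from mRNA with random primers, per the labels' protocols. Rows without a symbol (15200, with 2.50% to 2.62% of the CPM) and 10 rows with repeated symbols were left out, which left 36932. All values were whole multiples of their column's smallest step within 1e-06, but in 3 of the 6 columns a further check that 1 step is 1 read was not passed, so implied reads, and the chi-square below that rests on them, are estimates.

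From the deposited CPM, log2(CPM + 1) of the 13675 genes whose mean reached 1 CPM was fitted with limma-trend 3.58.1 (robust, statmod 1.5.0, R 4.3.3), with 3 groups sharing the spread and no covariate. Adding 1 CPM makes changes of low genes smaller. Tests were two-sided, with Benjamini-Hochberg adjustment over all tested genes and a call under 0.05. Replicates differed beyond sampling noise in each group (chi-square per gene 3.15 to 3.46). Libraries with the same replicate number deviated together (correlations over genes of 0.119 for colony 1 and control, 0.128 for colony 2 and control and 0.159 for colony 2 and colony 1). The main fit, which gave every p-value not credited to another fit, does not pair them. A fit with the replicate block was run as an alternative. It is given beside each result whose call it changes or whose count it moves by over 1.5 times. Members, lists and the naming rule (all members; from each other list the 2 called genes with the largest change in each direction; the 5 members closest to DDX18) were chosen with earlier results of these data known. Positions, exon lengths and coding sequences came from GENCODE 29 on GRCh38, alignments were made with Biopython 1.88 under Python 3.11.15, and promoters came from RefSeq. The tests were tried on simulated data first. The result of 1 marker gene is not reported here.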

Additional observations from a re-analysis of the deposited data

Results flagged for a closer look

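DDX41 was flagged because its difference between the colonies passed the test: colony 2 minus colony 1 was −0.29 on the log2(CPM + 1) scale (SE 0.08, limma adjusted p = 0.049), with 79.3 and 82.05 CPM in colony 2 and 97.4 and 101 CPM in colony 1, beside 74.5 and 75.4 CPM in control cells. Both libraries of colony 2 were lower than both of colony 1. The adjusted p is just under the threshold, 226 of 13675 genes (1.65%) were called lower in this contrast, and the call was lost when any 1 of the 4 knockdown libraries was left out (adjusted p 0.129 to 0.316).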

How the results depend on the processing

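Between knockdown and control, 10 members were higher and 3 lower. The lower count was 5 with median centring and 5 with the replicate block, and 2 to 5 when single libraries were left out. In colony 2 against control, 9 higher and 5 lower became 5 to 9 and 2 to 5 when single libraries were left out. In colony 2 against colony 1, the 1 lower member became 0 with no filter on low values, 0 with median centring and 3 with the replicate block, and 0 to 2 when single libraries were left out; the 0 higher members became 1 with the replicate block. The replicate block changed no other call of a member than those given with the results. The median of the other members was 0.0698 and, with median centring, 0.0221. That of the nucleolar members was 0.1089 and, with median centring, 0.0612, and 0.0784 to 0.1625 when single libraries were left out. Over all tested genes the median was 0.0051 and, with median centring, −0.0426. Centring moves the log2 change of every gene by the same amount. The cause of the other shifts was not tested. Counts of colony 1 stayed within 1.5 times, and DDX18 stayed called lower, under all alternatives run. Over the called changes of single members, 404 values stayed called in the alternatives, 48 kept their direction and lost the call, and 0 reversed. The 2 tests for read counts that had been planned, with edgeR and DESeq2, were not run, because the deposited values were CPM and the check that their steps are single reads was not passed in 3 of the 6 columns. With 2 libraries a group, and DDX47 and EIF4A1 at a few CPM, intervals of low members are wide.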
